A study of Mus musculus with 16 samples.

Results

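The 10 genes described here build the hyaluronan-based matrix of the brain and its perineuronal nets: Acan, Bcan, Ncan, Vcan, Hapln1, Hapln2, Hapln4, Tnr, Tnc and Has3. They were chosen by name, as lecticans, link proteins, tenascins and a hyaluronan synthase, out of 39179 gene rows. Each was found once in every library, and all 10 were among the 18074 genes with enough counts to be tested. RNA was sequenced from samples labelled as hippocampal and cortical neurons of adult TERT-AD mice of strain B6.129S6.SvEvTac that had been given tamoxifen or vehicle. Tert, the catalytic subunit of telomerase, is meant to be activated in the tamoxifen groups. By label, the groups were hippocampal neurons after tamoxifen, hippocampal control neurons, cortical neurons after tamoxifen and cortical control neurons, with 4 libraries each. All 4 groups carried the TERT-AD designation, which the labels do not expand. The sources used here do not give the driver through which tamoxifen acts, the age of the mice or the way the neurons were isolated. Neighbouring libraries were near repeats of each other and were added, which left 8 samples, 2 per group, called A and B. The labels do not say which libraries or regions came from the same animal, so p-values speak only of how far these samples vary.

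Lecticans are chondroitin sulfate proteoglycans that bind the long sugar hyaluronan at one end and tenascins at the other. Link proteins lock the lectican to hyaluronan, tenascin-R ties lecticans to each other, and hyaluronan synthases make the sugar at the cell surface. Around some neurons, above all the fast-spiking interneurons that express parvalbumin, this matrix condenses into perineuronal nets, which are known for limiting plasticity in the adult brain. Its parts come from several cell types: astrocytes and oligodendrocyte precursors make many of them, and neurons make others.

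Each sample held 83527470 to 108293362 counts in genes. Tert itself stood at 1.04 and 2.16 CPM, gene counts scaled to a sum of 1000000, in hippocampal tamoxifen samples A and B, against 1.47 and 3.89 CPM in the hippocampal controls. In cortex it stood at 1.04 and 2.34 CPM after tamoxifen, against 0.473 and 1.11 CPM in the controls. The groups overlapped in both regions, and Tert passed in neither by edgeR's quasi-likelihood test (log2 fold change -0.72, SE 0.65, adjusted p = 1 in hippocampus; 0.83, SE 0.67, adjusted p = 0.834 in cortex). Neuronal markers were present, with a summed level over 8 genes of 5550 to 10300 CPM. In these samples labelled as neurons, oligodendrocyte markers summed to 24200 to 72800 CPM over 9 genes and astrocyte markers to 7130 to 12400 CPM over 11. The oligodendrocyte sum was above the neuronal sum in every sample, so the RNA was not from neurons alone. In bulk RNA, fewer cells of a type and less RNA per cell cannot be told apart. Cortical tamoxifen sample B stood apart, with the highest neuronal sum (10300 CPM, with the remaining cortical samples at 6230 to 7050 CPM) and the lowest oligodendrocyte sum (24200 CPM). Hippocampal tamoxifen sample A held 143 CPM of choroid plexus markers, and the remaining hippocampal samples 10900 to 22700 CPM.

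The matrix genes spanned a wide range of levels, and 2 lecticans made up most of the RNA. Scaled per kilobase of exon, Bcan, which encodes brevican, was the most abundant, with a median of 98.9 CPM per kb over the 8 samples (range 59.8 to 148). Ncan, which encodes neurocan, followed at a median of 24.4 CPM per kb (21.7 to 32.6). Neither range overlapped that of the gene below it. Hapln2 had a median of 6.35, Tnr of 4.68, Hapln4 of 4.39 and Hapln1 of 2.58 CPM per kb. The range of each of these overlapped its neighbour in the order, and Tnr exceeded Hapln4 in 3 of 8 samples. Vcan (1.14 CPM per kb), Tnc (0.463), Acan (0.2) and Has3 (0.0933) closed the order; here too the ranges touched, although each gene exceeded the next in 8 of 8 samples. Unscaled for length, the 10 genes summed to 404 to 837 CPM per sample, of which Bcan and Ncan together took 81.0 to 87.7%. Aggrecan, the lectican by which nets are most often recognised, thus stood at a low RNA level in these samples, with 53 to 275 counts per sample. The counted model of Tnr starts 213741 bases after the RefSeq start of the gene. It also ends at base 159924397 of chr1, before the GENCODE M21 end at 159931729. The level of Tnr thus covers only part of the gene.

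**Figure D1:**
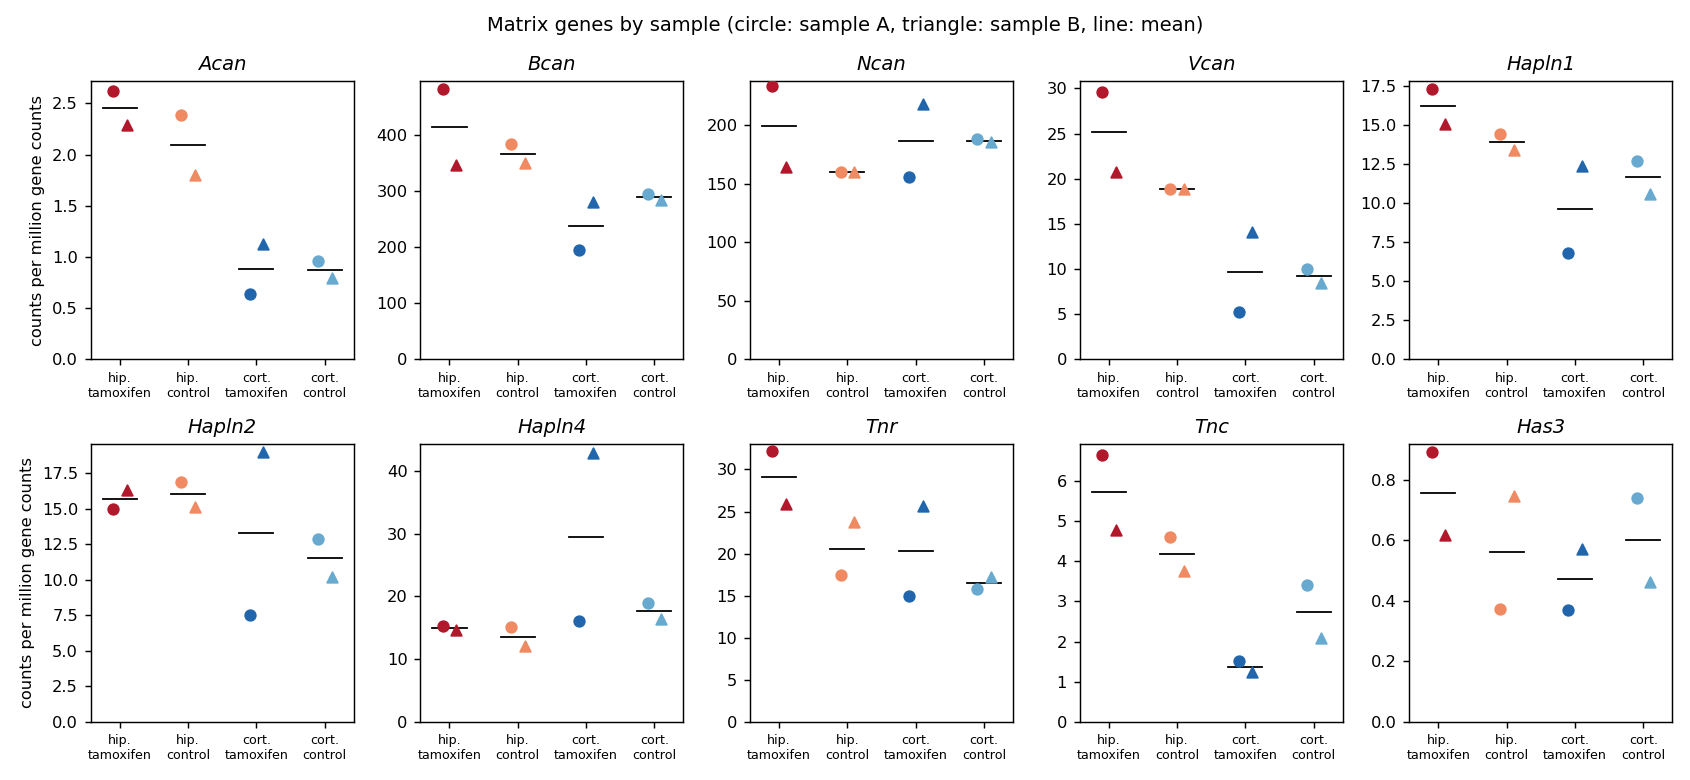
Level of each of the 10 genes, in CPM on a linear axis from 0, in the 2 samples of each group (circle, sample A; triangle, sample B; line, mean of both). Acan and Vcan lie higher in each of the 4 hippocampal samples than in any cortical sample, and Hapln4 peaks at 42.8 CPM in cortical tamoxifen sample B.

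Between regions, 4 of the 10 genes passed. Acan, Vcan and Tnc were higher in hippocampal than in cortical samples and Hapln4 was lower, all by edgeR's quasi-likelihood test averaged over tamoxifen and control samples. Of all genes tested, 18.4% passed (8.42% higher and 9.94% lower). At an unadjusted p under 0.05 there were 6 of 10, against 35.1% of all genes. The CPM of the 4 hippocampal and 4 cortical samples did not overlap for 6 of 10, with Acan, Bcan, Vcan, Hapln1 and Tnc higher (21.9% of all genes) and Hapln4 lower (4.44%). On the TMM scale used for the tests this held for 3 of 10, with Acan and Vcan higher (11.8% of all genes) and Hapln4 lower (15.2%). Scaled to total gene counts, 4 of 10 passed again, but with Bcan in place of Hapln4, and 85.1% of all called genes were higher, against 45.8% on the TMM scale. Leaving out 1 sample at a time gave 0 to 6 of the 10, with 0 without cortical control A or B. The median log2 difference of the 10 genes was 0.21, with 8 positive, against 0 for all genes tested. The labels do not say whether the regions came from the same mice, and the test takes them as independent.

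Acan (ENSMUSG00000030607, mm10 chr7:79053483-79115099) encodes aggrecan, the lectican most typical of perineuronal nets. It stood at 2.62 and 2.29 CPM in hippocampal tamoxifen samples and 2.39 and 1.80 CPM in hippocampal controls, against 0.635 and 1.13 CPM in cortical tamoxifen samples and 0.955 and 0.792 CPM in cortical controls. The lowest hippocampal sample was above the highest cortical sample. The log2 difference was 1.11 (SE 0.19, edgeR adjusted p = 0.0121). Leaving out cortical control A or B ended the call, at adjusted p = 0.0562 and 0.0716, with log2 differences of 1.17 and 1.06.

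Vcan (ENSMUSG00000021614, mm10 chr13:89655312-89742509) encodes versican, a lectican made by oligodendrocyte precursors. Its level was 29.6 and 20.7 CPM in hippocampal tamoxifen samples and 18.9 and 18.8 CPM in hippocampal controls, against 5.18 and 14.1 CPM in cortical tamoxifen samples and 10.04 and 8.48 CPM in cortical controls. The regions did not overlap, and hippocampal tamoxifen sample A was the highest of all. The log2 difference was 0.97 (SE 0.22, edgeR adjusted p = 0.026). It lost the call without cortical control A (adjusted p = 0.0838) or B (0.112), hippocampal control A (0.0785) or B (0.0885) or hippocampal tamoxifen A (0.0726), with log2 differences of 0.86 to 1.03.

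Tnc (ENSMUSG00000028364, mm10 chr4:63959785-64047015) encodes tenascin-C, a glycoprotein of developing and reactive tissue that astrocytes can make. It stood at 6.66 and 4.79 CPM in hippocampal tamoxifen samples and 4.61 and 3.76 CPM in hippocampal controls, against 1.51 and 1.24 CPM in cortical tamoxifen samples and 3.41 and 2.08 CPM in cortical controls. Hippocampal samples were higher throughout, with the smallest gap to cortical control A; on the TMM scale used for the test that gap closed and the regions overlapped. The log2 difference was 1.04 (SE 0.24, edgeR adjusted p = 0.0272). The call was lost when any sample but cortical tamoxifen A or B was left out, with adjusted p-values of 0.0551 to 0.109 and log2 differences of 0.89 to 1.23. Exons of Tnc overlap those of 8030451A03Rik on the opposite strand, and the sources used here do not give the strand setting of the counting.

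The promoters of these 3 genes, which were all higher in hippocampal samples, are shown to let them be compared, with that of Bcan, the most abundant gene. The windows are from RefSeq on GRCm38.p6, the build of mm10, and run from 250 bases before to 50 bases after the annotated start, written 5′ to 3′ on the gene's strand. Capitals mark the motifs searched on both strands: the GC box GGGCGG (reverse CCGCCC), the TATA box TATAAA (reverse TTTATA), the SOX core ACAATG (reverse CATTGT) and the NFI half-site TTGGCA (reverse TGCCAA). Acan lies at chr7:79052976-79053275 on the plus strand, Vcan at chr13:89742463-89742762, Tnc at chr4:64046966-64047265 and Bcan at chr3:88000307-88000606, the last 3 on the minus strand.
Acan: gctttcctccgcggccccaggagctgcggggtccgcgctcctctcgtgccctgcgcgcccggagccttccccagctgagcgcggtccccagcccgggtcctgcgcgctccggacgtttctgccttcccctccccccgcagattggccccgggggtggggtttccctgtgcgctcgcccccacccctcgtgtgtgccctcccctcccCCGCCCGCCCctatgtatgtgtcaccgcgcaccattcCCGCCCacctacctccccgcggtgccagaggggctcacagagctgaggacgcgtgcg
Vcan: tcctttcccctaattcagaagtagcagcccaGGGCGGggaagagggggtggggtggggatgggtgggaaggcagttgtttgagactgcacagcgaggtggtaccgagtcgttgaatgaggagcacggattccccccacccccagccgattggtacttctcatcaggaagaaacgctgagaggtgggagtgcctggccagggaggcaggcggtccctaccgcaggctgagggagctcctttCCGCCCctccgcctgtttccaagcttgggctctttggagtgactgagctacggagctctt
Tnc: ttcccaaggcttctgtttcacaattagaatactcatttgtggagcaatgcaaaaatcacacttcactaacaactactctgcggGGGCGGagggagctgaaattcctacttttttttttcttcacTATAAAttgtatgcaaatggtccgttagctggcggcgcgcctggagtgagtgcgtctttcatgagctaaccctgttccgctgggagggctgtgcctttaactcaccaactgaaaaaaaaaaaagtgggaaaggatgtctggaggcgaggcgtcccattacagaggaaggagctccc
Bcan: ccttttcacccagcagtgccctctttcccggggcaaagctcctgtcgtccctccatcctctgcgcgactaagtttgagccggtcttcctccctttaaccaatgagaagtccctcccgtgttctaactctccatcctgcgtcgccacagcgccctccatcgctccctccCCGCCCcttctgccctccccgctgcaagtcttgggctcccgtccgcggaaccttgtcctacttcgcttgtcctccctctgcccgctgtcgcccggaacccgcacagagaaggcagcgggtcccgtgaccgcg
Of the motifs searched, only the GC box was found in all 4 windows. Acan's held 3, of which 2 overlap, Vcan's 2, Tnc's 1 and Bcan's 1, where 35.7% of 32851 windows of this length held at least 1. Of these 4 windows, Tnc's alone held the letters of the TATA box, found in 13.6% of all windows. They lay 126 bases before the annotated start. None of the 4 had a SOX core (12.6% of all) or an NFI half-site (14.1%). GC content was 74.0% in Acan, 61.0% in Vcan, 47.3% in Tnc and 64.0% in Bcan, around a median of 52.7% for all windows. Acan's window held 31 CpG pairs and Bcan's 24, above the upper quartile of 20, while Vcan's held 12 and Tnc's 10. Acan's window is built around a start 257 bases before that of the counted gene model. RefSeq windows were matched for 8 of the 10 genes. Tnc had another RefSeq window, not shown, around a start 79 bases from that of the counted gene model. That window held 1 GC box, the letters of 1 TATA box, an NFI half-site and 16 CpG pairs, with a GC content of 54.0%.

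Hapln4 (ENSMUSG00000007594, mm10 chr8:70083529-70090862) encodes the link protein Bral2, which neurons make and which pairs with brevican. Its level was 15.3 and 14.6 CPM in hippocampal tamoxifen samples and 15.1 and 11.96 CPM in hippocampal controls, against 16.1 and 42.8 CPM in cortical tamoxifen samples and 18.9 and 16.4 CPM in cortical controls. The regions did not overlap, by a narrow margin apart from cortical tamoxifen sample B. The log2 difference was -0.91 (SE 0.2, edgeR adjusted p = 0.0254). Without cortical tamoxifen B it was -0.63 and passed (adjusted p = 0.00579). It did not pass when scaled to total gene counts (-0.68, adjusted p = 0.116), nor without either cortical control or any 1 hippocampal sample (adjusted p 0.0718 to 0.101, log2 differences -0.98 to -0.85).

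The other link proteins and lecticans did not pass between regions. Bcan (ENSMUSG00000004892, mm10 chr3:87987531-88000356) stood at 483 and 347 CPM in hippocampal tamoxifen samples and 384 and 350 CPM in hippocampal controls, against 195 and 281 CPM in cortical tamoxifen samples and 296 and 284 CPM in cortical controls. Scaled to gene counts, its CPM did not overlap between regions; on the TMM scale the regions overlapped, with 336 and 323 in hippocampal controls below 342 and 339 in cortical controls. The log2 difference on that scale was 0.31 (SE 0.11, edgeR adjusted p = 0.101); scaled to total gene counts it was 0.57 and passed (adjusted p = 0.0444). Ncan (ENSMUSG00000002341, mm10 chr8:70093085-70120873) gave 234 and 164 CPM in hippocampal tamoxifen samples and 160 and 160 CPM in hippocampal controls, against 156 and 218 CPM in cortical tamoxifen samples and 188 and 186 CPM in cortical controls, with a log2 difference of -0.33 (SE 0.11, edgeR adjusted p = 0.0839). Brevican and neurocan thus had differences of opposite sign on the TMM scale, neither past the threshold. Without hippocampal tamoxifen A, Ncan passed at -0.45 (adjusted p = 0.0435).

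Hapln1 (ENSMUSG00000021613, mm10 chr13:89540636-89611832), the link protein of perineuronal nets, stood at 17.3 and 15.1 CPM in hippocampal tamoxifen samples and 14.4 and 13.4 CPM in hippocampal controls, against 6.78 and 12.4 CPM in cortical tamoxifen samples and 12.7 and 10.6 CPM in cortical controls. The CPM scaled to gene counts did not overlap between regions. On the TMM scale the regions overlapped, with 12.6 and 12.3 in hippocampal controls and 14.6 and 12.6 in cortical controls, and the log2 difference was 0.26 (SE 0.12, edgeR adjusted p = 0.168). Hapln2 (ENSMUSG00000004894, mm10 chr3:88021750-88027583), the link protein of nodes of Ranvier on myelinated axons, gave 15.0 and 16.3 CPM in hippocampal tamoxifen samples and 16.9 and 15.1 CPM in hippocampal controls, against 7.53 and 19.0 CPM in cortical tamoxifen samples and 12.9 and 10.2 CPM in cortical controls. The lowest and the highest value of Hapln2 were both in the cortical tamoxifen group, and the log2 difference between regions was 0.12 (SE 0.19, edgeR adjusted p = 0.691). Without cortical tamoxifen B, Hapln1 (0.37, adjusted p = 0.0272) and Hapln2 (0.37, adjusted p = 0.0449) passed.

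Tnr (ENSMUSG00000015829, mm10 chr1:159737510-159924397) encodes tenascin-R, which cross-links lecticans. It stood at 32.2 and 25.9 CPM in hippocampal tamoxifen samples and 17.4 and 23.8 CPM in hippocampal controls, against 15.0 and 25.7 CPM in cortical tamoxifen samples and 15.8 and 17.2 CPM in cortical controls. Has3 (ENSMUSG00000031910, mm10 chr8:106870242-106884566), a hyaluronan synthase, gave 0.894 and 0.619 CPM in hippocampal tamoxifen samples and 0.373 and 0.748 CPM in hippocampal controls, against 0.371 and 0.571 CPM in cortical tamoxifen samples and 0.740 and 0.461 CPM in cortical controls. Both genes overlapped between regions, with log2 differences of 0.17 (SE 0.15) for Tnr and 0.04 (SE 0.32) for Has3, and edgeR adjusted p-values of 0.456 and 0.951. Has3 rests on 31 to 94 counts per sample, and its exons overlap those of Chtf8 on the other strand.

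Marker levels of several cell types differed between the regions as well. The 6 oligodendrocyte precursor markers found summed to 459 to 653 CPM in hippocampal and 240 to 404 CPM in cortical samples, and 4 of 6 passed as higher. Astrocyte markers summed to 9370 to 12400 CPM in hippocampal and 7130 to 9510 CPM in cortical samples, with 6 of 11 higher. Neuronal markers summed to 5550 to 7840 CPM in hippocampal and 6230 to 10300 CPM in cortical samples, with 6 of 8 lower, and 8 of 9 markers of parvalbumin interneurons were lower. None of 9 oligodendrocyte, 7 endothelial or 6 choroid plexus markers passed between regions. No marker of these lists was at 0 in any sample. Set against the mean log2(CPM + 0.5) of the precursor markers in the same sample, Acan differed between hippocampus and cortex by 0.1 and Vcan by 0.32, and the regions overlapped for both. Against the astrocyte markers Acan and Vcan differed by 0.39 and 0.61, with overlap. Against the neuronal markers they differed by 1.7 and 1.92, without overlap. Tnc differed by 0.52 against the astrocyte markers and Hapln4 by 0.11 against the neuronal markers, both with overlap. The value for Acan depends on the pseudocount, which is large beside its level. With none, an alternative chosen after seeing the data, Acan differed by 0.47 against the precursor markers. Against the astrocyte markers it then differed by 0.77, and the regions did not overlap in either case. The same alternative gave 0.36 for Vcan against the precursor markers, with overlap. It gave 0.72 for Tnc against the astrocyte markers and 0.09 for Hapln4 against the neuronal markers, both with overlap. Ncan was lower in every hippocampal sample than in any cortical sample when set against the astrocyte markers, by 0.69. Set against the neuronal markers, it was instead higher in every hippocampal sample, by 0.62. The part of cell makeup in the differences between regions was not tested further.

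**Figure D2:**
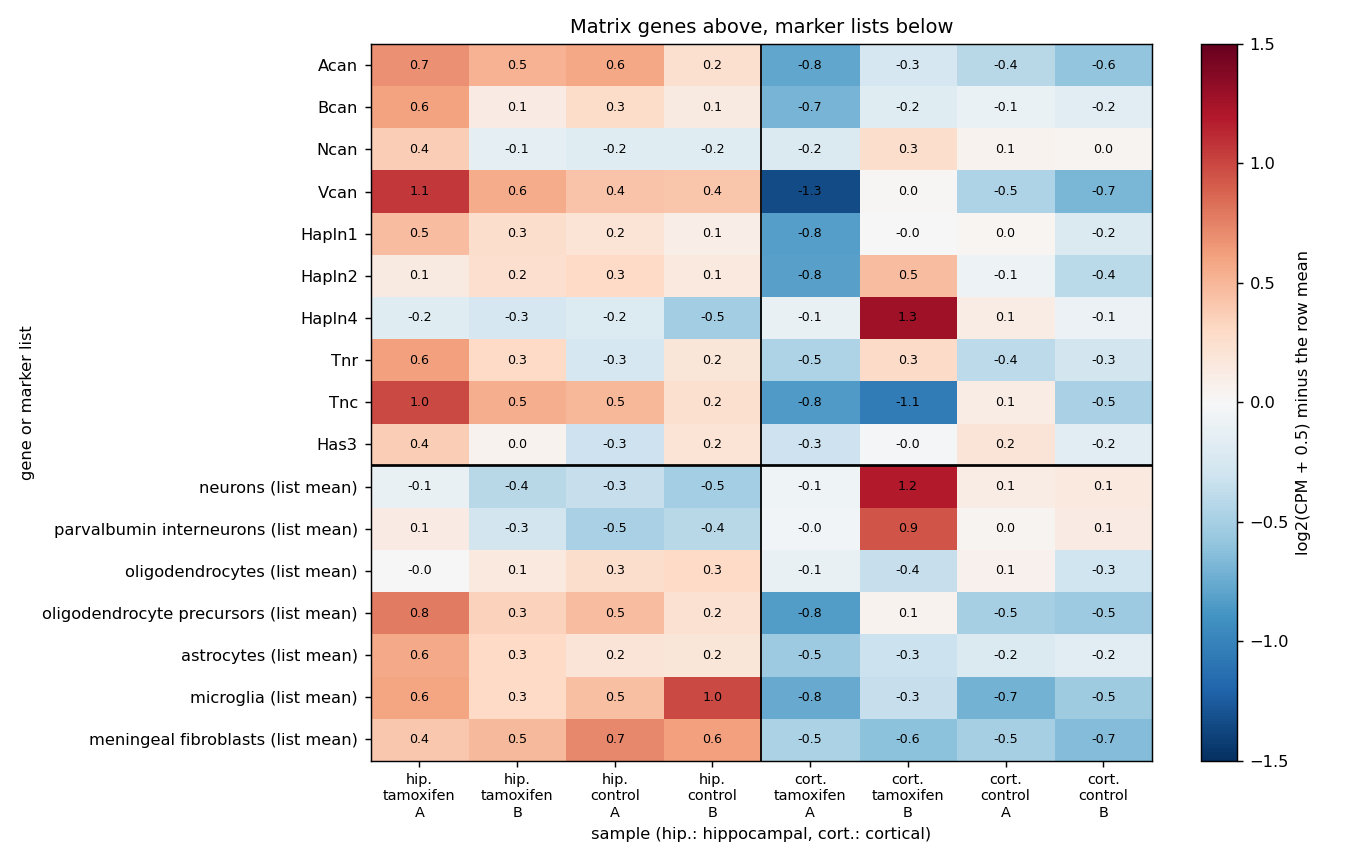
Level of the 10 genes (above the line) and mean level of 7 marker lists (below it) in the 8 samples, each as log2(CPM + 0.5) minus the mean of its row; red is above and blue below that mean. Acan, Vcan and Tnc are red in hippocampal samples and mostly blue in cortical ones. So are the precursor, astrocyte, microglia and meningeal fibroblast lists. Hapln4 and the neuronal list are both darkest red in cortical tamoxifen sample B.

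Correlations with the cell type lists are given as a description over 8 samples that share region and group, and differences between lists were not tested. Pearson's r of log2(CPM + 0.5) with the mean of the precursor markers was 0.98 for Vcan, 0.97 for Acan, 0.91 for Bcan, 0.89 for Hapln1 and 0.74 for Tnc. With the astrocyte markers it was 0.92 for Vcan, 0.93 for Acan, 0.95 for Bcan, 0.87 for Hapln1 and 0.92 for Tnc. Acan also had 0.91 with the meningeal fibroblast and 0.88 with the microglia markers. Hapln4 had 0.97 with the neuronal and -0.95 with the endothelial markers. Acan had -0.41 with the markers of parvalbumin interneurons, the cells whose nets it marks. Ncan had its highest value, 0.74, with those interneuron markers, and a larger negative one, -0.85, with the choroid plexus markers. Among the genes themselves, r was 0.95 for Acan with Vcan and for Bcan with Hapln1, and -0.63 for Hapln4 with Tnc.

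The genes whose levels ran closest to each member, out of 12213 genes with a mean of at least 1 CPM, were in part known glial or neuronal genes. Vcan ran closest to Slc1a4, Nkx2-2 and Olig2 (r 0.987 to 0.995 over 8 samples), of which the last 2 encode transcription factors of the oligodendrocyte lineage. Bcan ran closest to Slc13a3, Tst and Gabrg1 (0.992 to 0.996), and Acan to Tpcn1, Cml1 and Oplah (0.991 to 0.994). Hapln4 ran closest to Tspyl5, Sult4a1 and Kcnq5 (0.991 to 0.996), the last a neuronal potassium channel. Hapln2 had Arrdc2 (0.991), Tnc had Sash1 (0.977), Hapln1 had Acsl3 (0.979), Tnr had Rgs16 (0.976), Ncan had Phf21b (0.945) and Has3 had Ttc14 (0.915) as the closest gene.

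Each lectican gene has a link protein gene beside it on the chromosome, with no other gene between them. The gaps were 2222 bases for Ncan and Hapln4, 21393 bases for Bcan and Hapln2, 43479 bases for Vcan and Hapln1 and 1927 bases for Acan and Hapln3. The level per length of Vcan was 0.458 to 0.599 of that of Hapln1 in hippocampal samples, against 0.267 to 0.395 in cortical samples. This ratio did not overlap between regions, and cortical tamoxifen B gave the highest cortical value. The ratio of Bcan to Hapln2 ran from 10.7 in cortical tamoxifen B to 23.4 in hippocampal tamoxifen A. That of Ncan to Hapln4 ran from 2.52 to 7.6 in the same 2 samples. Both ratios overlapped between regions. So did that of Acan to Hapln3, at 0.336 to 0.463 in hippocampal and 0.271 to 0.579 in cortical samples. No ratio was tested.

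Tamoxifen was next set against control in the hippocampus, where the Tert counts did not separate the groups. None of the 10 genes passed, and 0 of 18074 genes did (0%) by edgeR. Its unadjusted p was under 0.05 for 653 genes (3.61%), among them 1 of the 10, Tnr. DESeq2, on the 8 samples, called 8 genes. In all comparisons limma's voom was fitted to the 16 libraries, with a correlation between those of a sample, and here it called 3. None of these calls were among the 10. All 10 log2 fold changes were positive, with a median of 0.3, against -0.01 for all genes tested, of which 48.7% were positive. Scaled to total gene counts, 9 of 10 were positive, with Hapln2 at -0.03. The CPM values of 5 genes, Ncan, Vcan, Hapln1, Tnr and Tnc, were higher in both tamoxifen samples than in either control, where 14.6% of all genes were; on the TMM scale 7 were, with Acan and Hapln4, where 21% of all genes were. The fold changes included Tnr (0.52, SE 0.21, edgeR adjusted p = 1), Tnc (0.48, SE 0.33), Has3 (0.45, SE 0.46), Vcan (0.44, SE 0.31) and Ncan (0.34, SE 0.16). Tamoxifen sample A held the highest hippocampal CPM of 9 of the 10 genes, all but Hapln2. Without that sample the fold changes of Bcan and Ncan were -0.01 and 0.1, and those of Tnc and Vcan 0.27 and 0.2. Leaving out 1 sample at a time gave 0.28 to 0.8 for Tnr, with the lowest value without control A, and 0 to 1.08 for Has3, with 0 without control A and 1.08 without control B. The same sample had the highest astrocyte sum, 12400 CPM, with the remaining hippocampal samples at 9370 to 10700 CPM, and the lowest choroid plexus level. Astrocyte markers were positive in 10 of 11, with a median of 0.32, and precursor markers in 6 of 6, with a median of 0.24. Against the astrocyte markers of the same sample, Bcan differed between tamoxifen and control by -0.08 and Hapln1 by -0.03. Tnr (0.25), Tnc (0.16), Vcan (0.14), Ncan (0.05) and Has3 (0.02) were positive on this measure. Acan (-0.05), Hapln4 (-0.09) and Hapln2 (-0.27) were negative. The part of these cells in the fold changes was not tested.

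In the cortex, none of the 10 genes passed either, and 0 of 18074 genes did (0%) by edgeR, with 899 at an unadjusted p under 0.05 (4.97%), among them 3 of the 10, Tnc, Hapln1 and Bcan; DESeq2 called 8 genes and limma's voom 15, none of them among the 10. Of the 10, 8 had a negative log2 fold change, with a median of -0.22, against 0.04 for all genes tested. This direction depended on scaling: with total gene counts, which moved the median of all genes to 0.247, 4 of 10 were negative. Tnc gave -1.14 (SE 0.34, edgeR adjusted p = 0.83), Hapln1 -0.51 (SE 0.17) and Bcan -0.5 (SE 0.16), and these 3 and Has3 (-0.56, SE 0.46) were negative under each scaling tried. In CPM scaled to gene counts, Tnc and Bcan were lower in both tamoxifen samples than in either control, where 6.29% of all genes were; on the TMM scale 5 of the 10 were, with Ncan, Hapln1 and Has3, where 15.0% of all genes were. Hapln4 had the largest positive value, 0.46 (SE 0.28, edgeR adjusted p = 0.83), which came from 42.8 CPM in tamoxifen sample B beside 16.1 CPM in sample A.

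The cortical tamoxifen samples were unlike each other, and leaving out either moved the result. Without sample A, edgeR called 2014 genes, among them Tnc (-1.56, adjusted p = 0.0373) and Hapln4 (0.86, adjusted p = 0.0194). Without sample B, it called 1 gene and none of the 10, and Hapln4 stood at -0.09. In sample B the neuronal marker sum was 10300 CPM, against 7000 and 7050 CPM in the controls, and the mitochondrial share of counts 20.35%, against 31.0 and 31.5%. Choroid plexus markers summed to 6600 and 93.7 CPM after tamoxifen, against 1260 and 66 CPM in the controls, with a median log2 fold change of 2.45. Endothelial markers were negative in 7 of 7, with a median of -0.35. Astrocyte markers were negative in 11 of 11, with a median of -0.42, and summed to 7130 and 8780 CPM after tamoxifen, against 9110 and 9510 CPM in the controls. Against those markers, Bcan differed between tamoxifen and control by -0.07 and Hapln1 by -0.08, while Tnc differed by -0.52 (-0.72 without a pseudocount). With the pseudocount, the rest of the 10 genes were positive on this measure, from 0.07 (Has3) to 0.81 (Hapln4). Against the neuronal markers Hapln4 differed by 0.14. The part of cell makeup in the cortical values was not tested further.

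The change with tamoxifen was next compared between the regions. The difference, hippocampus minus cortex, was positive for 9 of the 10 genes (8 with total gene counts), with a median of 0.61 on the log2 scale, against -0.04 for all genes tested. It was 1.63 (SE 0.47) for Tnc, 0.76 (SE 0.23) for Hapln1, 0.7 (SE 0.22) for Bcan and 0.55 (SE 0.23) for Ncan. None passed in edgeR's interaction test (adjusted p = 0.889 for each of these 4), and 0 of 18074 genes did (0%), with 981 at an unadjusted p under 0.05 (5.43%), among them the same 4. DESeq2, on the 8 samples, called 4 genes, none of them among the 10. On the 16 libraries limma's voom called 112, among them Bcan (0.69, voom adjusted p = 0.0229). Tnc was lower in both cortical tamoxifen samples than in the cortical controls and higher in both hippocampal tamoxifen samples than in the hippocampal controls. The 11 astrocyte markers had a median difference of 0.75 and were all positive. Averaged over regions, tamoxifen gave log2 fold changes of -0.33 (Tnc) to 0.32 (Hapln4) and called none of the 10, where edgeR called 2 of 18074 genes (0.0111%); 655 genes (3.62%) and none of the 10 had an unadjusted p under 0.05.

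**Figure D3:**
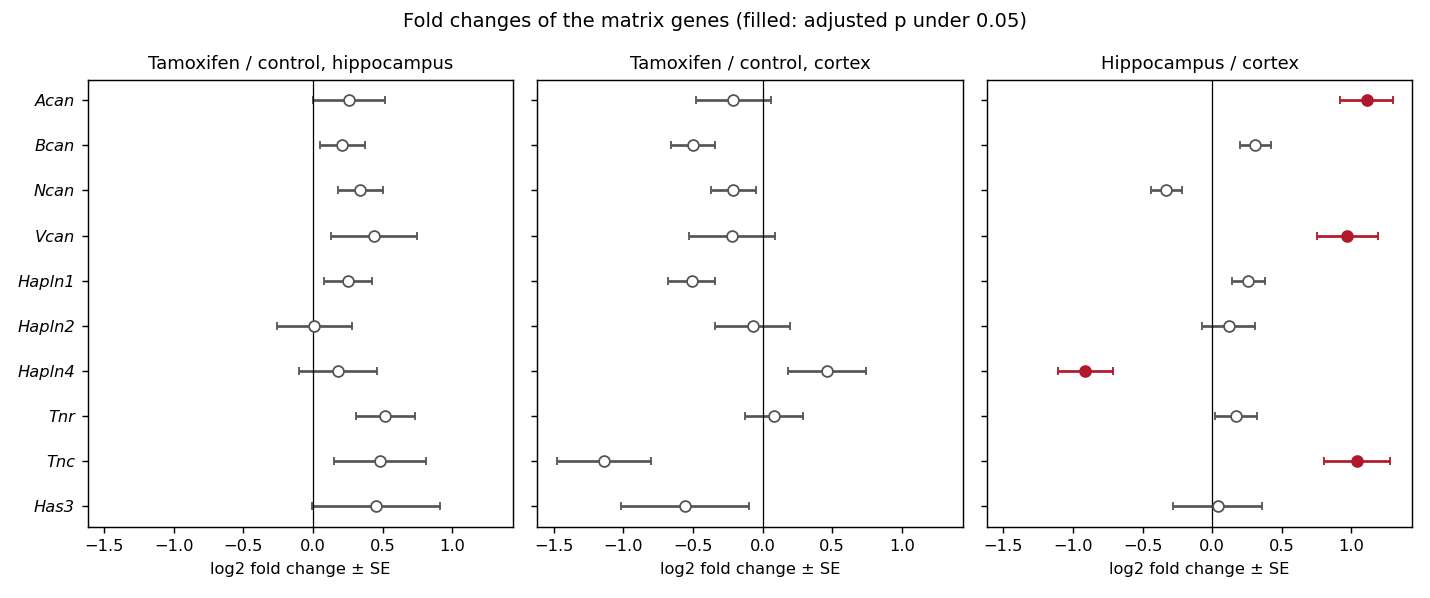
Log2 fold change with its standard error for each gene, from edgeR on 8 samples, for tamoxifen over control in hippocampus (left) and cortex (middle) and for hippocampus over cortex (right); filled red points passed at an adjusted p under 0.05. The 4 filled points, Acan, Vcan, Tnc and Hapln4, are all in the right panel, and every point of the left panel is above 0 on this TMM scale (Hapln2 is at -0.03 with total gene counts).

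Genes that build, cut and bind the matrix were followed in 5 further lists. Of 61 listed genes 57 were tested, and between regions 18 were higher in hippocampus and 3 lower by edgeR, against 8.42% and 9.94% of all genes; with tamoxifen none passed in either region. Hyaluronan turnover and receptors had 5 of 7 tested genes higher and none lower, with a median log2 difference of 0.67. Lyve1, a hyaluronan receptor of lymphatic vessels and border macrophages, was higher by 2.71 (SE 0.38, adjusted p = 0.0077), at 0.2 to 0.545 CPM in hippocampal and 0.0205 to 0.0902 CPM in cortical samples, the cortical values resting on 2 to 9 counts each. Chondroitin sulfate synthesis had 7 of 19 higher and 1 lower, with a median of 0.27. Ust, a uronyl sulfotransferase, was higher by 0.94 (SE 0.13, adjusted p = 0.00808), and B3gat3, which completes the linker of the sugar chain, was lower by 0.53 (log2 difference -0.53, SE 0.09, adjusted p = 0.0122).

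Among proteases and their inhibitors, 4 of 13 tested genes were higher in hippocampus and none lower, with a median of 0.52. Mmp14, a membrane-bound metalloproteinase, stood at 23.6 to 30.3 CPM in hippocampal and 11.1 to 15.9 CPM in cortical samples (log2 difference 0.72, SE 0.11, edgeR adjusted p = 0.00851). Net ligands and receptors had 1 of 13 higher and 2 lower. Cspg4, the NG2 proteoglycan of oligodendrocyte precursors and pericytes, was higher by 1.01 (SE 0.1, adjusted p = 0.00414). Sema3a, a secreted guidance protein that binds nets, differed by -3.92 (SE 0.48, adjusted p = 0.00611), and Nptx2, a pentraxin of excitatory synapses onto parvalbumin interneurons, by -2.05 (SE 0.35, adjusted p = 0.0119). Sema3a stood at 0.129 to 0.323 CPM in hippocampal samples, against 1.4 to 7.33 CPM in cortical samples. The 7.33 CPM were in cortical tamoxifen sample B, with the remaining cortical samples at 1.4 to 1.71 CPM. Nptx2 too was highest in that sample, at 23.4 CPM, with the remaining cortical samples at 5.64 to 7.15 CPM. Its hippocampal samples were at 2.21 to 3.6 CPM. Of the other members of the families, Hapln3, Has1, Has2, Tnn and Tnxb, 1 of 5 passed, Tnxb, as higher. Markers of meningeal fibroblasts were higher in 6 of 6 and those of microglia in 6 of 7 between the regions; their part in these lists was not tested.

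With tamoxifen the listed genes of smallest p did not pass. In hippocampus these were Timp4, an inhibitor of metalloproteinases (0.36), Ptprz1, a receptor-type phosphatase that binds tenascins (0.32), Lyve1 (-1.06) and Cntn1, a neuronal adhesion protein (-0.36), at edgeR adjusted p = 1. In cortex they were Crtac1 (0.97), Timp2, another such inhibitor (0.43), Mmp14 (-0.63) and Ptprz1 (-0.42), at adjusted p = 0.83. For the difference between regions they were Ptprz1 (0.74), Timp4 (0.72), Timp2 (-0.81) and Lyve1 (-2.13), at adjusted p = 0.889. Averaged over regions they were Crtac1 (0.6), Cd44, a hyaluronan receptor (0.49), Mmp14 (-0.43) and Dse, a dermatan sulfate epimerase (-0.25), at adjusted p = 0.961. The lists had medians of -0.31 to 0.83 in hippocampus and -0.08 to 0.23 in cortex.

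**Figure D4:**
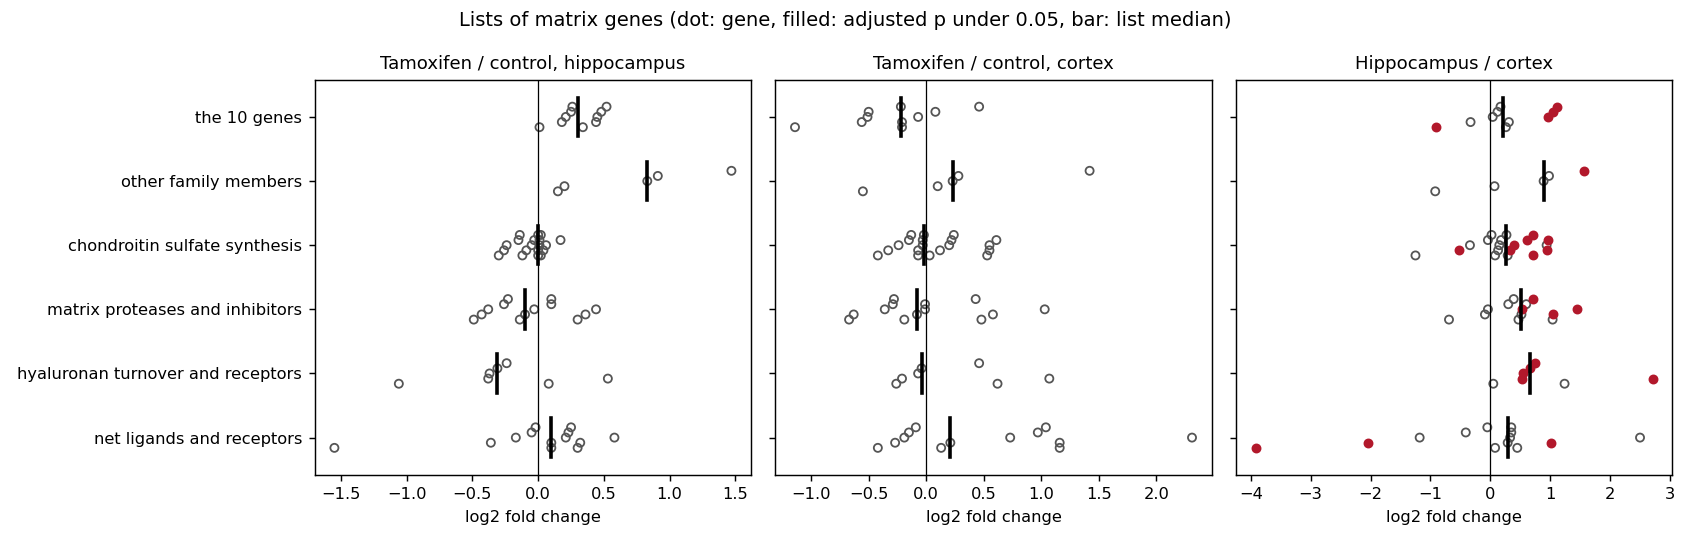
Log2 fold change of every tested gene of the 10-gene set and of 5 lists of matrix genes for tamoxifen over control in hippocampus (left) and cortex (middle) and for hippocampus over cortex (right); each panel has its own linear axis, filled red dots passed at an edgeR adjusted p under 0.05 and bars are list medians. Filled dots occur only in the right panel, 4 in the 10-gene set and 21 in the lists.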

How the data were processed

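RNA was sequenced in 16 libraries, 4 from each of 4 groups, and extracted with Trizol, per the labels' protocols. Per the submitters' processing notes, STAR and HTSeq were used with the mm10 build; the sources used here give no version, annotation release or strand setting. The deposited counts are whole numbers of reads for each gene and are not normalized. The deposited RPKM beside it, per the file headers, entered no test. Rows without a gene entered neither library sizes nor tests: 27.53 to 35.43% of all counts were multimapped, 3.64 to 7.93% lay outside genes and 1.38 to 1.86% were ambiguous.

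Counts in genes were 33236178 to 57195203 per library. Neighbouring libraries of a group differed by 2.584 to 2.794 times the Poisson variance at 20 to 200 counts (8 pairs), against 3.592 to 16.787 times for the 16 other pairs of the same groups. They were therefore counted as 1 sample, a choice that rests on the values, as the labels do not name repeats. CPM values are scaled to the counts in genes. Fold changes and tests used edgeR 4.0.16 (R 4.3.3): filterByExpr, TMM scaling, a mean per group over 8 samples and the robust quasi-likelihood test, with Benjamini-Hochberg adjustment over 18074 genes and a threshold of 0.05. Standard errors were taken as the log2 fold change over the square root of F. The fit was tested on simulated data. Alternatives used DESeq2 1.42.0 and limma 3.58.1.

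Genes named are the 10, Tert, from the other matrix lists up to 4 per direction of smallest p among those that passed (or 2 per direction where none passed, named as not passing), and the 3 genes whose log2 CPM, with a pseudocount of 0.5, ran closest to each of the 10. Differences from marker lists used the same pseudocount; none was tried as an alternative after seeing the data. Tnxb, a lone call of its list, was named after its value was seen. Marker lists are neurons, parvalbumin interneurons, oligodendrocytes, oligodendrocyte precursors, astrocytes, microglia, endothelial cells, choroid plexus and meningeal fibroblasts. The genes, lists and tests were chosen with earlier results of these data known. Promoters and gene models were compared with RefSeq and GENCODE M21 on GRCm38, and all 10 identifiers were found in M21. Replicate numbers are shared between groups, but the deviations of same-numbered samples correlated at -0.405 to 0.283 over the 6 pairs of groups, so the numbers were not taken to pair samples.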

Additional observations from a re-analysis of the deposited data

Results flagged for a closer look

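Tnc had fold changes of opposite sign with tamoxifen in the 2 regions, and passed in neither. Its level was higher in both hippocampal tamoxifen samples than in either hippocampal control, and lower in both cortical tamoxifen samples than in either cortical control. The difference of the log2 fold changes, hippocampus minus cortex, was 1.63 (SE 0.47), and it did not pass in edgeR's interaction test (adjusted p = 0.889). Leaving out 1 sample at a time gave differences of 1.25 to 2.04, with adjusted p-values of 0.0876 to 1. The 11 astrocyte markers had differences of the same sign, with a median of 0.75; their part in the value of Tnc was not tested.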

How the results depend on the processing

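Under the alternatives other than leaving out a sample, 425 of 450 member values kept their direction and their side of the threshold. Of the rest, 14 newly passed, 3 no longer passed and 8 that had not passed changed sign. In the 4 tamoxifen comparisons none of the 10 genes had passed in the main fit, so no call could be lost there. All 3 lost calls were between regions. Leaving out 1 sample changed the sign of 30 of 400 values, none of which had passed. It ended calls only between regions, where each called gene lost its call without either cortical control. With 16 libraries fitted separately, which gives p-values that are too small where neighbours repeat 1 sample, 562 genes passed in cortex, 318 in hippocampus, 867 for the difference between regions, 133 for tamoxifen averaged over regions and 8481 between regions. Of the 10 genes this fit called 3 in cortex (Bcan, Hapln1 and Tnc), 4 for the difference (with Ncan) and 7 between regions. With limma's voom and a within-sample correlation of 0.736, 15, 3, 112, 4 and 5029 genes passed in the same order, with 1 of the 10 (Bcan) for the difference and 6 between regions (the 4 of the report, Bcan, adjusted p = 0.00295, and Ncan, 0.00129). DESeq2 called 8, 8, 4 and 14 genes in the first 4 comparisons. Without a count filter 1 gene passed for averaged tamoxifen. With the replicate block 0 genes passed for averaged tamoxifen and 2109 between regions, with 2 of the 10 genes, Acan and Tnc; Vcan (0.98, adjusted p = 0.0504) and Hapln4 (-0.9, adjusted p = 0.0501) did not. Leaving out 1 sample gave 0 to 2014 genes and 0 to 2 of the 10 in cortex, and 0 to 926 genes and 0 to 1 of the 10 for averaged tamoxifen (Hapln4, 0.52, adjusted p = 0.0343, without cortical tamoxifen A). Between regions it gave 369 to 6144 genes and 0 to 6 of the 10, with 0 of the 10 without either cortical control. In these runs the lone sample of a group is assumed to vary like the others. Scaling to total gene counts moved the median log2 value of all genes to 0.247 in cortex, -0.28 for the difference and 0.265 between regions. The cause of these shifts was not tested. Comparing the genes with marker lists without a pseudocount, chosen after seeing the data, gave 0.47 for Acan against the precursor markers, in place of 0.1. Acan and Has3, at 53 to 275 and 31 to 94 counts per sample, are the genes most limited by depth.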
